A study of Homo sapiens with 16 samples.

Results

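Genes of the super elongation complex and the BET readers were followed in RNA of LNCaP cells, an established human prostate cancer line. The set holds 9 genes: AFF1, AFF4, ELL, ELL2, EAF1, MLLT1, MLLT3, BRD2 and BRD3. They were chosen by name, as the rows of the count table whose Ensembl identifiers map to these symbols, and make up 9 of 60252 genes in the table. All 9 passed the filter on low counts and are among the 23830 genes tested.

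RNA polymerase II often pauses shortly after it starts to transcribe a gene, and it is released when the kinase CDK9, bound to a cyclin T as P-TEFb, phosphorylates the polymerase and its pausing factors. The super elongation complex brings P-TEFb to genes: AFF1 or AFF4 is the scaffold, ELL or ELL2 is an elongation factor that stimulates the polymerase directly, EAF1 binds the ELL proteins, and MLLT1 (also called ENL) or MLLT3 (AF9) carries a YEATS domain that reads acylated histones. BET proteins such as BRD2 and BRD3 read acetylated histones through paired bromodomains and also act in elongation. In prostate cancer cells BET proteins are known as partners of the androgen receptor.

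The 16 libraries made 8 groups of 2. The arms were cells with a scrambled siRNA (Scr), cells with 1 of 2 siRNAs against OGT (siOGT1 or siOGT2), with knockdown lasting 48 hours, and cells with OSMI2, an inhibitor of the OGT enzyme, which attaches the sugar O-GlcNAc to proteins. The sources used here give neither a dose nor a duration for OSMI2, and do not say whether scrambled siRNA was added to those cells. Where OSMI2 is set against Scr, in level or in AT7519 response, the inhibitor and any difference in siRNA cannot be told apart. In each arm, cells received DMSO or 0.5 μM AT7519, an inhibitor of cyclin-dependent kinases that include CDK9, for the last 4 hours. All groups share this 1 cell line and the solvent or agent step, and no library without either was analysed here. The labels do not tie the replicates to separate cultures. The p-values therefore measure only the spread between these libraries, which may be technical. The comparisons ask how AT7519 moved the RNA of these genes, how each OGT arm differed from Scr, and whether the arms differed in their AT7519 response.

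Total counts were 40216911 to 147019364 per library, and Pearson's r between the 2 replicates of a group was 0.983 to 0.991 over genes. OGT was at 274 and 263 CPM (read counts brought to a common library size and composition) in Scr with DMSO. Its log2 fold change against Scr was -3.91 in siOGT1 and -3.03 in siOGT2 (adjusted p 3.48e-11 and 1.35e-09), so the targeted gene follows the labels of both siRNAs. All 8 luminal prostate markers passed the filter, and their summed level was 3906 to 4677 CPM with DMSO and 4306 to 5253 CPM with AT7519. Basal markers summed to at most 1.08 CPM and leukocyte markers to at most 0.811 CPM. Stromal markers summed to 12.9 to 30.9 CPM with DMSO and 15.0 to 43.2 CPM with AT7519, almost wholly COL1A1, while COL1A2 and DCN stayed under 1 CPM.

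Promoter sequence is shown for 3 members that responded differently below: AFF1 and BRD3, which had the steepest falls with AT7519 in Scr, and MLLT1, which passed no test of AT7519. Each line gives the 240 bases from 250 to 11 bases before the annotated start in RefSeq (GRCh38.p14), 5′ to 3′ on the gene's strand. Capitals mark the TATA box TATAAA, the CCAAT box, the GC box written GGGCGG and the E-box written CACGTG, searched on both strands, with overlapping matches joined.
AFF1: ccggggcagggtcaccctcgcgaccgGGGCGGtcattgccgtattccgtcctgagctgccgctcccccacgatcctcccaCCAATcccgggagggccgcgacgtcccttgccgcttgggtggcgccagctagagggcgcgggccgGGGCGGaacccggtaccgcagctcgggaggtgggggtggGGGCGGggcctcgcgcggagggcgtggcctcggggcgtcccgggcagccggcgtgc
BRD3: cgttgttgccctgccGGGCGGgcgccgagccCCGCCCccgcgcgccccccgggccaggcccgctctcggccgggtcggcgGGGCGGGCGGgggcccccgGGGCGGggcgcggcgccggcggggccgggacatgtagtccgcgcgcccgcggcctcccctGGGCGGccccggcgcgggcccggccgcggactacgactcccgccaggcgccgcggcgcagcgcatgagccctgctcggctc
MLLT1: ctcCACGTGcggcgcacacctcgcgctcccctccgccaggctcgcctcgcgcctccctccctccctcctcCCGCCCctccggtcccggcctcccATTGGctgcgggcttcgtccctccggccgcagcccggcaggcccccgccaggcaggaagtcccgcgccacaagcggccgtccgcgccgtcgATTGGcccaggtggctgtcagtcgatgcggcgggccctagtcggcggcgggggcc
The AFF1 window lies at chr4:86934761-86935000 on the plus strand, before the first of 2 AFF1 starts in the table, and holds 3 GGGCGG and 1 CCAAT match. The BRD3 window, chr9:134068037-134068276 on the minus strand, holds 6 GGGCGG matches, of which 2 overlap, and no other motif searched. The MLLT1 window, chr19:6279986-6280225 on the minus strand, holds 2 CCAAT, 1 GGGCGG and 1 CACGTG match. Among all 35116 windows of this length, 41.4% held GGGCGG, 31.4% CCAAT, 10.6% TATAAA and 6.01% CACGTG. Entries were found for 8 of 9 members (not for ELL2), none of which held TATAAA. These matches are descriptions of letters, and no binding was measured.

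Levels between genes can be compared only per length, here as CPM per kilobase of annotated exon. In Scr with DMSO, BRD2 stood highest at 35.6 ± 0.0848 CPM per kilobase (SD, n = 2), followed by MLLT1 at 33.3 ± 0.857 and the scaffold AFF4 at 28.8 ± 0.129. AFF1 was at 10.6 ± 0.308, EAF1 at 9.52 ± 0.213, ELL2 at 8.59 ± 1.14 and BRD3 at 7.92 ± 0.248. ELL was at 4.49 ± 0.294 and MLLT3 at 1.74 ± 0.0718. In each of the 4 paralog pairs, 1 gene was the more abundant in these cells: AFF4 over AFF1, ELL2 over ELL, MLLT1 over MLLT3 and BRD2 over BRD3.

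**Figure D1:**
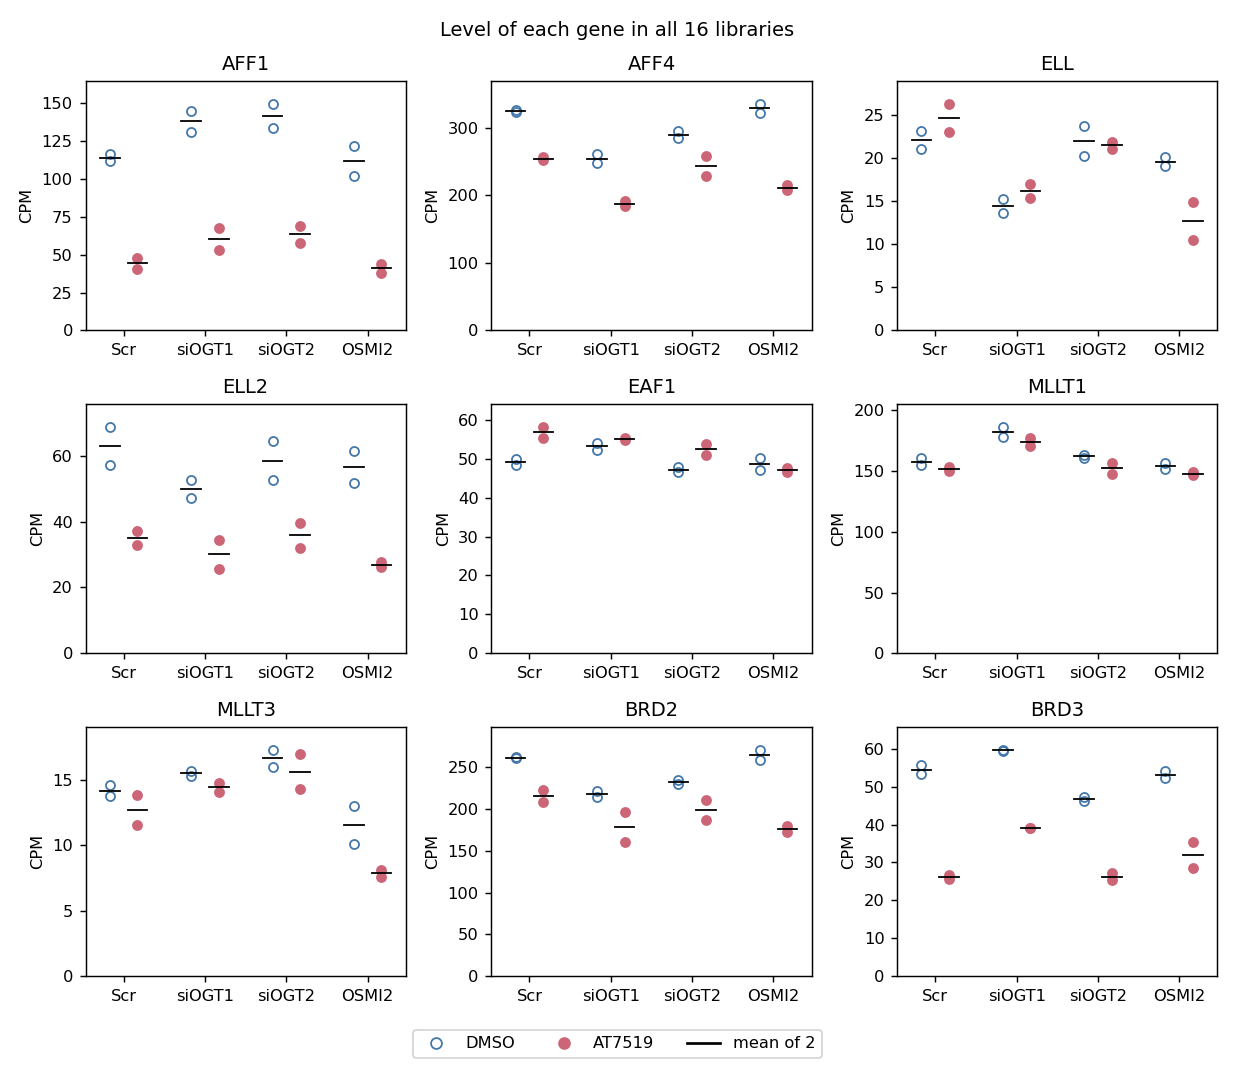
CPM of each gene (vertical axis, from 0) in all 16 libraries by arm, with open circles for DMSO, filled circles for AT7519 and a bar at the mean of 2 libraries. In every arm the AT7519 libraries of AFF1, AFF4, ELL2, BRD2 and BRD3 lie below the DMSO libraries, those of MLLT1 lie close to them, and ELL and MLLT3 separate most in the OSMI2 arm.

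The scaffold AFF1 had the steepest response to AT7519 of the 9 genes in every arm. In Scr it was at 112 and 116 CPM with DMSO and at 40.8 and 48.0 CPM with AT7519. In siOGT1 it went from 131 and 145 to 52.8 and 67.5 CPM, in siOGT2 from 133 and 149.5 to 58.0 and 68.6 CPM, and in OSMI2 from 102 and 122 to 38.1 and 43.8 CPM. All 8 DMSO libraries (lowest 102, median 126, highest 149.5 CPM) lay above all 8 AT7519 libraries (lowest 38.1, median 50.4, highest 68.6 CPM). The fall in Scr was 2.56-fold, a log2 fold change of -1.36 (SE 0.13, 95% interval -1.62 to -1.10, adjusted p 5.6e-08, edgeR's quasi-likelihood test with Benjamini-Hochberg adjustment over all 23830 genes). It was -1.20 in siOGT1, -1.16 in siOGT2 and -1.45 in OSMI2, with adjusted p from 2.3e-08 to 4.71e-07. In the Scr arm, 10.7% of tested genes had a lower fold change than AFF1. As these are bulk libraries, fewer cells with a transcript and less of it per cell cannot be told apart.

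AFF4, the scaffold shared by most forms of the complex, fell too, but less. It was at 324 and 326 CPM in Scr with DMSO and at 257 and 252 CPM with AT7519. The pairs were 261 and 247 against 184 and 191 CPM in siOGT1, 285 and 296 against 228 and 258 CPM in siOGT2, and 322 and 336 against 215 and 208 CPM in OSMI2. Within each arm the agents did not overlap, but AFF4 with DMSO in siOGT1 was as low as AFF4 with AT7519 in Scr. The log2 fold change was -0.35 in Scr (SE 0.07, adjusted p 4.92e-04), -0.44 in siOGT1 (adjusted p 6.66e-05), -0.25 in siOGT2 (adjusted p 0.0076) and -0.64 in OSMI2 (adjusted p 5.5e-07). The call in siOGT2 was lost without siOGT2 AT7519 replicate 1 (-0.16, adjusted p 0.12) and without siOGT2 DMSO replicate 2 (-0.23, adjusted p 0.064). With upper-quartile scaling it was -0.15 (adjusted p 0.12), and AFF4 in Scr was -0.20 (adjusted p 0.032). Scaling by library size alone gave larger falls of AFF4, with log2 values of -0.60 in Scr, -0.66 in siOGT1 and -0.52 in siOGT2.

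The elongation factors split. ELL2, known in other cells for its part in messenger RNA processing as well as elongation, fell in all 4 arms, whereas its paralog ELL was called lower in OSMI2 and not called in the other arms. ELL2 was at 57.1 and 68.9 CPM in Scr with DMSO and at 33.0 and 37.1 CPM with AT7519. Across arms its DMSO libraries ranged from 47.1 to 68.9 CPM and its AT7519 libraries from 25.7 to 39.6 CPM, with no overlap. The log2 fold changes were -0.84 in Scr (SE 0.15, adjusted p 9.63e-05), -0.73 in siOGT1, -0.71 in siOGT2 and -1.07 in OSMI2 (adjusted p 7.89e-06 to 5.84e-04 in those 3 arms). Every recomputation, including each library left out in turn, kept these ELL2 calls, as it did those of AFF1 and BRD3.

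ELL was at 23.1 and 21.1 CPM in Scr with DMSO and at 23.0 and 26.3 CPM with AT7519. It was at 15.2 and 13.6 against 16.9 and 15.3 CPM in siOGT1 and at 23.7 and 20.3 against 21.0 and 21.9 CPM in siOGT2. In OSMI2 it was at 20.1 and 19.1 CPM with DMSO and at 14.9 and 10.5 CPM with AT7519. Only in OSMI2 did both AT7519 libraries lie below both DMSO libraries, and the lowest ELL value of all 16 was OSMI2 AT7519 replicate 2, the library with the fewest counts. The log2 fold change there was -0.61 (SE 0.14, adjusted p 0.00121), against 0.16 in Scr (95% interval -0.13 to 0.44, adjusted p 0.37), 0.16 in siOGT1 (-0.13 to 0.45) and -0.034 in siOGT2 (-0.32 to 0.25). Without OSMI2 AT7519 replicate 1 it was -0.94 (adjusted p 7.75e-05), and without replicate 2 of that group it was -0.42 (adjusted p 0.028).

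EAF1, the ELL-associated partner, was the only member called higher with AT7519 against DMSO. Its levels were 48.3 and 49.8 CPM in Scr with DMSO and 55.3 and 58.2 CPM with AT7519, a rise of 0.21 on the log2 scale (SE 0.08, adjusted p 0.034). The call was lost in 9 of 26 recomputations and turned, uncalled, in 1 more. Among the 9 were those without either library of Scr with DMSO (0.18 and 0.23, adjusted p 0.18 and 0.096) and without Scr AT7519 replicate 2 (0.18, adjusted p 0.17). With library size alone the value turned to -0.033 (adjusted p 0.75), and with upper-quartile scaling it was 0.37 (adjusted p 5.86e-04). In siOGT1, siOGT2 and OSMI2 the log2 fold changes were 0.049, 0.15 and -0.045, none called. With upper-quartile scaling EAF1 in siOGT2 was called higher as well (0.26, adjusted p 0.0099). The range of EAF1 over all 16 libraries was 46.5 to 58.2 CPM, and its highest group mean was 1.20-fold above its lowest, the narrowest range of the 9 genes.

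Of the YEATS readers, MLLT1 passed no test of AT7519 in the fit reported and MLLT3 passed that in OSMI2 and in no other arm. MLLT1 was at 155 and 161 CPM in Scr with DMSO and at 153 and 150.2 CPM with AT7519, a log2 fold change of -0.057 (95% interval -0.20 to 0.087). In the other arms its values were -0.066, -0.089 and -0.060, with intervals that reach no lower than -0.23. Its DMSO libraries nevertheless lay above its AT7519 libraries in each arm, though barely in siOGT1 (lowest 178.0 CPM with DMSO, highest 177.6 CPM with AT7519). With tests kept to genes of mean log2 CPM of at least 3, MLLT1 in siOGT2 was called lower (-0.16, adjusted p 0.037). MLLT3 was at 13.7 and 14.6 against 13.9 and 11.5 CPM in Scr, and at 13.0 and 10.05 against 7.57 and 8.11 CPM in OSMI2. The OSMI2 fold change was -0.55 (SE 0.14, adjusted p 0.00278), and it was -0.37 (adjusted p 0.080) without OSMI2 DMSO replicate 1. In Scr, siOGT1 and siOGT2 MLLT3 had values of -0.16, -0.10 and -0.092, with a 95% interval of -0.44 to 0.12 in Scr. With library size alone, MLLT1 was called lower in all 4 arms (-0.30, -0.29, -0.35 and -0.31), MLLT3 in Scr, siOGT1 and siOGT2 too (-0.41, -0.33 and -0.36), and EAF1 in OSMI2 (-0.29).

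Both BET readers fell in all 4 arms, BRD3 further than BRD2. BRD3 was at 53.3 and 55.7 CPM in Scr with DMSO and at 25.5 and 26.8 CPM with AT7519, a 2.08-fold fall (log2 fold change -1.06, SE 0.10, adjusted p 3.16e-08). It was at 59.8 and 59.4 against 39.0 and 39.0 CPM in siOGT1, 47.2 and 46.3 against 25.4 and 27.2 CPM in siOGT2, and 52.1 and 54.0 against 28.6 and 35.4 CPM in OSMI2. All DMSO libraries of BRD3 were thus above all its AT7519 libraries, and the siOGT1 libraries were the highest under each agent. The log2 fold changes were -0.61, -0.83 and -0.73 in siOGT1, siOGT2 and OSMI2, with adjusted p from 9.16e-07 to 2.87e-05.

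BRD2 was at 261 and 262 CPM in Scr with DMSO and at 209 and 223 CPM with AT7519. The pairs were 222 and 214 against 160.2 and 196 CPM in siOGT1, 234 and 229.6 against 187 and 210.4 CPM in siOGT2, and 271 and 258 against 179.8 and 173 CPM in OSMI2. No arm had overlapping agents, and the gap was widest in OSMI2. There the log2 fold change was -0.59 (SE 0.09, adjusted p 1.29e-05), against -0.28 in Scr (adjusted p 0.0131), -0.29 in siOGT1 (adjusted p 0.0104) and -0.22 in siOGT2 (adjusted p 0.042). The smaller 3 falls depended on the scaling: with upper-quartile scaling they were -0.12, -0.16 and -0.11 (adjusted p 0.29, 0.17 and 0.32), and with library size alone -0.52, -0.51 and -0.49, all called. Single libraries also ended these calls. Without Scr AT7519 replicate 1 the Scr value was -0.20 (adjusted p 0.15), and without siOGT1 AT7519 replicate 1 or siOGT1 DMSO replicate 1 the siOGT1 value was -0.15 or -0.27 (adjusted p 0.25 and 0.074). The siOGT2 call was lost in most recomputations that leave out a library, furthest without siOGT2 AT7519 replicate 1 (-0.14, adjusted p 0.30).

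**Figure D2:**
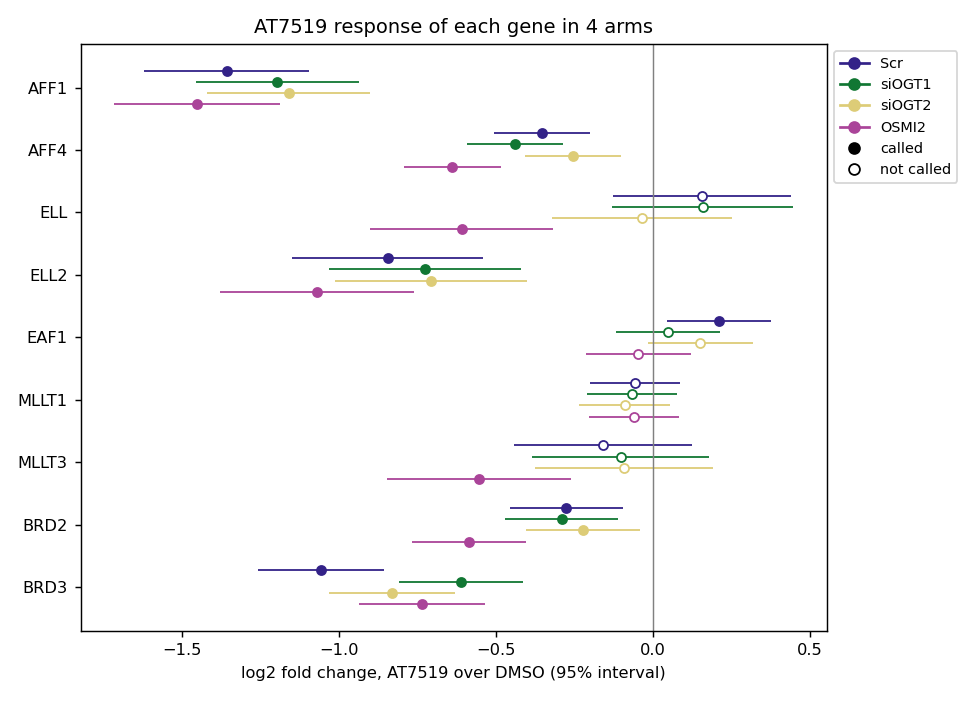
Log2 fold change of AT7519 over DMSO (horizontal axis) for each gene and arm, with 95% intervals from edgeR and filled points for genes called at an adjusted p under 0.05. AFF1, AFF4, ELL2, BRD2 and BRD3 are filled left of 0 in all 4 arms, ELL and MLLT3 are filled in OSMI2 alone, and MLLT1 lies near 0 throughout.

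In Scr, AT7519 thus changed 6 of 9 members, 1 higher and 5 lower, where 46.5% of all tested genes were called (21.8% higher and 24.6% lower). In siOGT1 5 of 9 were called, all lower, against 41.5% of tested genes (19.4% higher and 22% lower). In siOGT2 5 of 9 were called, all lower, against 45% (22.2% higher and 22.8% lower). In OSMI2 7 of 9 were called, all lower, against 47.2% (23.6% higher and 23.6% lower). The share of members called in either direction is near the background in the siRNA arms, while the members' calls lie on the lower side and those of all genes are split about evenly. The 5 genes AFF1, AFF4, ELL2, BRD2 and BRD3 (55.6% of members) were called lower in all 4 arms, as were 15.3% of tested genes. The median log2 fold change of the members was -0.28 in Scr, -0.29 in siOGT1, -0.22 in siOGT2 and -0.61 with OSMI2, against -0.050, -0.047, -0.033 and 0.023 for all tested genes.

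All these changes are relative to the bulk of genes, since the sources used here name no spike-in. In Scr, upper-quartile scaling moved the median log2 fold change of all genes to 0.10 and library size alone moved it to -0.30. The split of calls into higher and lower was 5206 and 5866 as reported, 6714 and 4730 with upper-quartile scaling and 3024 and 8207 with library size alone. AFF1, ELL2 and BRD3 were called lower in all 4 arms under each scaling, and AFF4 in all but siOGT2 with upper-quartile scaling. BRD2 was called in OSMI2 alone with upper-quartile scaling and lost its siOGT2 call with RLE scaling (-0.19, adjusted p 0.072).

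Under DMSO, calls against Scr among these genes came from siOGT1. Against Scr, siOGT1 changed 2 of 9 members, both lower, where 10.4% of tested genes were called (4.89% higher and 5.51% lower). At an unadjusted p under 0.05 there were 6 members and 5472 of 23830 genes. ELL went from 23.1 and 21.1 CPM in Scr to 15.2 and 13.6 CPM in siOGT1, a log2 fold change of -0.62 (SE 0.14, adjusted p 0.0059), and AFF4 from 324 and 326 to 261 and 247 CPM, a change of -0.36 (SE 0.07, adjusted p 0.00347). The libraries of the 2 groups did not overlap for either gene. Without siOGT1 DMSO replicate 2 both calls were lost (ELL -0.54, adjusted p 0.098, and AFF4 -0.32, adjusted p 0.080), and without Scr DMSO replicate 1 that of ELL was (-0.55, adjusted p 0.074). The second siRNA did not share either call: ELL was -0.011 (95% interval -0.30 to 0.27) and AFF4 -0.16 (-0.32 to -0.012, adjusted p 0.25) in siOGT2. These comparisons share the Scr libraries. The libraries of siOGT2 with AT7519 enter this comparison only through the filter, the scaling and the shared spread. Without either of them, MLLT1 (0.21) and BRD2 (-0.26) in siOGT1 were called too. DESeq2 and limma voom called 4, and a replicate block called 5 (AFF1, MLLT1 and BRD2 added). Calls over all 23830 genes rose as well, from 1165 higher and 1314 lower as reported. They were 1425 and 1726 with DESeq2 and 1615 and 1772 with limma voom. With a block over all samples they were 1468 and 1736, and with a block within each agent 2022 and 2365.

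In siOGT2 under DMSO, edgeR called 0 of 9 members, with 4.3% of tested genes called (1.92% higher and 2.38% lower). At an unadjusted p under 0.05 there were 3 members and 3993 of 23830 genes, and DESeq2 and limma voom also called 0. AFF1, at 133 and 149.5 CPM against 112 and 116 CPM in Scr, was 0.31 higher (95% interval 0.057 to 0.57, adjusted p 0.18), and in siOGT1 it was 0.28 higher (0.021 to 0.53, adjusted p 0.18). Both AFF1 pairs lay above both Scr libraries, but neither difference passed the test. With a replicate block over all samples both were called (0.27 and 0.31, adjusted p 0.017 and 0.015), as they were with a block within each agent (adjusted p 0.0035 and 0.0023). In OSMI2 under DMSO, edgeR called 0 of 9 members where 2.98% of tested genes were called (0.491% higher and 2.49% lower), with 1 member and 3623 genes at an unadjusted p under 0.05 and 0 members by DESeq2 and limma voom. The largest OSMI2 difference was that of MLLT3, at 13.0 and 10.05 CPM against 13.7 and 14.6 CPM (-0.30, 95% interval -0.58 to -0.017, adjusted p 0.29).

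With AT7519 in both groups, more members and more of all tested genes were called against Scr than under DMSO. siOGT1 differed from Scr in 6 of 9 members, 3 higher and 3 lower, where 19.2% of tested genes were called (9.97% higher and 9.19% lower). BRD3 was higher at 39.0 and 39.0 CPM against 25.5 and 26.8 CPM (0.58, SE 0.10, adjusted p 2.48e-04), and AFF1 at 52.8 and 67.5 against 40.8 and 48.0 CPM (0.44, SE 0.12, adjusted p 0.0175). ELL was lower at 16.9 and 15.3 against 23.0 and 26.3 CPM (-0.61, adjusted p 0.00342), and AFF4 at 184 and 191 against 257 and 252 CPM (-0.44, adjusted p 2.46e-04). For ELL and AFF4 the sizes match those under DMSO, -0.62 and -0.36, whereas BRD3 had been 0.13 higher without AT7519 (adjusted p 0.46). The calls of MLLT1 (0.20, adjusted p 0.049) and BRD2 (-0.28, adjusted p 0.030) were weak.

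Single libraries carried several of these. Without Scr AT7519 replicate 1, AFF1 in siOGT1 was 0.31 (adjusted p 0.19), and without siOGT1 AT7519 replicate 2 it was 0.25 (adjusted p 0.26). BRD2 was -0.15 without siOGT1 AT7519 replicate 1, -0.43 without replicate 2 of that group and -0.22 without Scr AT7519 replicate 2 (adjusted p 0.34, 0.0054 and 0.19). MLLT1 was 0.17 without siOGT1 AT7519 replicate 2 (adjusted p 0.22), and with any library left out except those of siOGT2 with AT7519 its call was lost. BRD3, ELL and AFF4 kept their calls with each library left out.

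In siOGT2 with AT7519, 1 of 9 members differed from Scr where 8.16% of tested genes were called (4.68% higher and 3.48% lower). AFF1 was at 58.0 and 68.6 CPM against 40.8 and 48.0 CPM, 0.51 higher (SE 0.12, adjusted p 0.0151). That call was lost without Scr AT7519 replicate 1 (0.38, adjusted p 0.15) and without siOGT2 AT7519 replicate 2 (0.38, adjusted p 0.15). Both siRNA arms are set against the same Scr libraries. In OSMI2 with AT7519, AFF1 was -0.12 against Scr (95% interval -0.38 to 0.14), and the arms were not tested against each other.

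OSMI2 with AT7519 differed from Scr with AT7519 in 5 of 9 members, all lower, where 14.2% of tested genes were called (5.18% higher and 9.01% lower). The inhibitor and any difference in siRNA between these groups cannot be told apart. ELL, at 14.9 and 10.5 CPM against 23.0 and 26.3 CPM, was 1.92-fold lower (-0.94, SE 0.14, adjusted p 1.72e-04). MLLT3, at 7.57 and 8.11 CPM against 13.9 and 11.5 CPM, was 1.62-fold lower (-0.70, SE 0.14, adjusted p 0.00238). Both kept their calls in every recomputation. AFF4 (-0.27, adjusted p 0.018), EAF1 (-0.27, adjusted p 0.030) and BRD2 (-0.29, adjusted p 0.029) were lower by about the same amount. Without OSMI2 AT7519 replicate 2 these 3 calls were lost (adjusted p 0.089, 0.11 and 0.125), as were those of EAF1 and BRD2 without Scr AT7519 replicate 2 (adjusted p 0.097 and 0.095) and that of AFF4 without Scr AT7519 replicate 1 (adjusted p 0.050). With upper-quartile scaling AFF4, EAF1 and BRD2 were -0.18, -0.18 and -0.20, and with library size alone -0.17, -0.17 and -0.19, none called. BRD3 went the other way, at 28.6 and 35.4 CPM against 25.5 and 26.8 CPM (0.29, adjusted p 0.053), and was called in 6 of 26 recomputations, among them both scalings. ELL2 was -0.38 (adjusted p 0.096) and was called in 8 of 26. Those included each fit without 1 library of siOGT1 or siOGT2 with AT7519 (-0.42), groups not in this comparison.

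**Figure D3:**
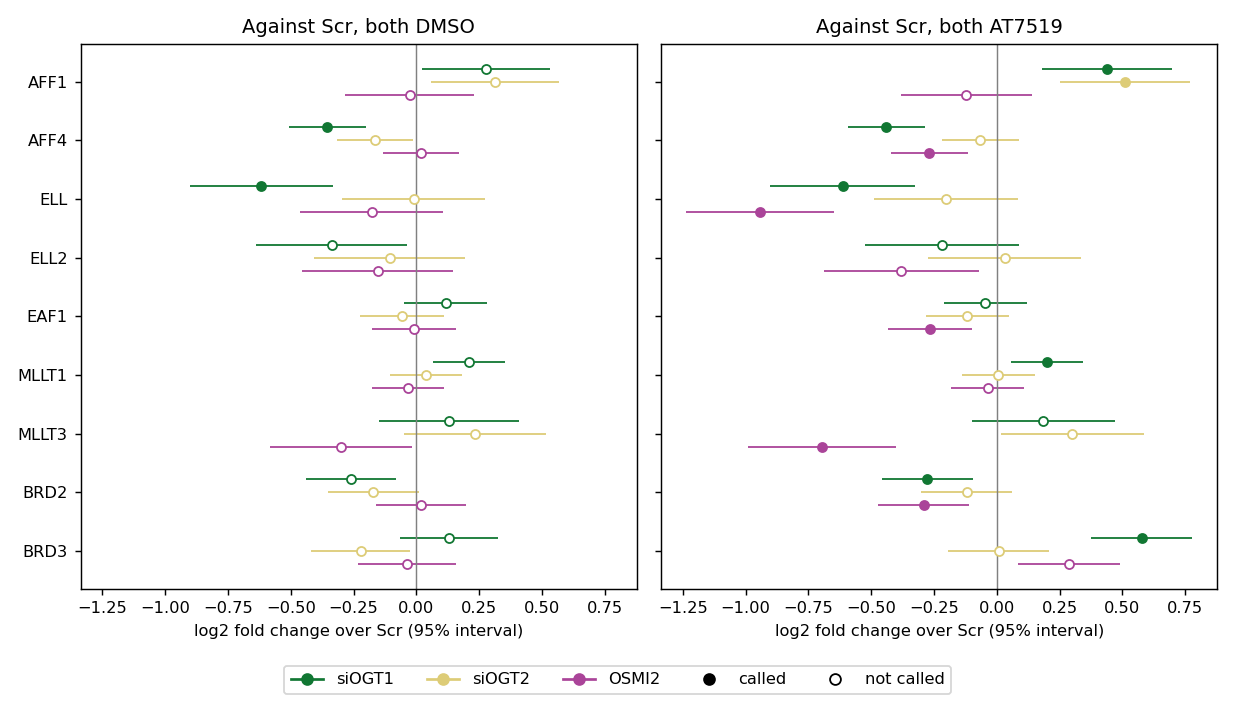
Log2 fold change of each OGT arm over Scr (horizontal axis) with DMSO on the left and AT7519 on the right, with 95% intervals and filled points for genes called at an adjusted p under 0.05. With DMSO only AFF4 and ELL in siOGT1 are filled. With AT7519, AFF1 in siOGT1 and siOGT2 and BRD3 and MLLT1 in siOGT1 are filled on the right of 0. ELL and MLLT3 in OSMI2 lie furthest to the left.

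Whether an arm changed the AT7519 response was tested as the difference of its response from that in Scr. By edgeR, 0 of 9 members passed for each of siOGT1, siOGT2 and OSMI2, where 0.0504% (0.0378% higher and 0.0126% lower), 0% and 0.747% (0.0839% higher and 0.663% lower) of tested genes were called. At an unadjusted p under 0.05 there were 1, 0 and 5 members, and 1393, 928 and 2087 of 23830 genes. DESeq2 called 0, 0 and 1 of the members, and of all tested genes 79, 2 and 53 higher and 39, 1 and 422 lower. The largest difference was that of ELL in OSMI2, -0.77 (SE 0.20, 95% interval -1.17 to -0.36, adjusted p 0.080). It was called in 9 of 26 recomputations. Those included each fit without 1 library of siOGT1 or siOGT2 with AT7519 (-0.82), groups not in this comparison. It was also called with DESeq2 (-0.80, adjusted p 0.00593) and with the replicate block over all samples or within each agent (adjusted p 0.025 and 0.0040). Without OSMI2 AT7519 replicate 1 it was -1.12 (adjusted p 0.00377), while without replicate 2 of that group it was -0.59 (adjusted p 0.28). The fall of ELL with AT7519 is therefore called in OSMI2 and not in Scr, but the difference between the arms did not pass in the fit reported. For siOGT1 the largest difference was a smaller fall of BRD3, by 0.45 (SE 0.13, 95% interval 0.17 to 0.73, adjusted p 0.40), which was called with a replicate block within each agent (adjusted p 0.043). In OSMI2, the fitted difference was below 0 in 8 of 9 members, none of which passed, and in 10695 of 23830 tested genes. Its median was -0.26 over the members and 0.035 over all tested genes, and that of MLLT1 was -0.0029. The exception was BRD3 (0.32, adjusted p 0.44).

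RNA ratios between paralogs were followed as a description. The ratio of AFF1 to AFF4, in CPM per kilobase, went from 0.369 with DMSO to 0.184 with AT7519 in Scr, from 0.573 to 0.337 in siOGT1, from 0.513 to 0.274 in siOGT2 and from 0.357 to 0.204 in OSMI2. ELL2 over ELL went from 1.93 to 0.957 in Scr, 2.34 to 1.26 in siOGT1, 1.82 to 1.12 in siOGT2 and 1.94 to 1.46 in OSMI2. For both ratios, the AT7519 libraries lay below the DMSO libraries in every arm. In Scr, the ratio of ELL2 to ELL thus fell to near 1 on this measure of length. BRD3 over BRD2 went from 0.223 to 0.129 in Scr, 0.292 to 0.236 in siOGT1 and 0.215 to 0.141 in siOGT2 without overlap, and from 0.214 to 0.194 in OSMI2 with overlap. MLLT3 over MLLT1 went from 0.0523 to 0.0488 in Scr and from 0.0599 to 0.0599 in siOGT2, both with overlap, and from 0.0495 to 0.0482 in siOGT1 and 0.0434 to 0.0309 in OSMI2, both without overlap. These ratios do not depend on the scaling of libraries, and they were not tested. Their size, but not their change, depends on the annotated exon lengths used, which may differ from the transcripts present.

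**Figure D4:**
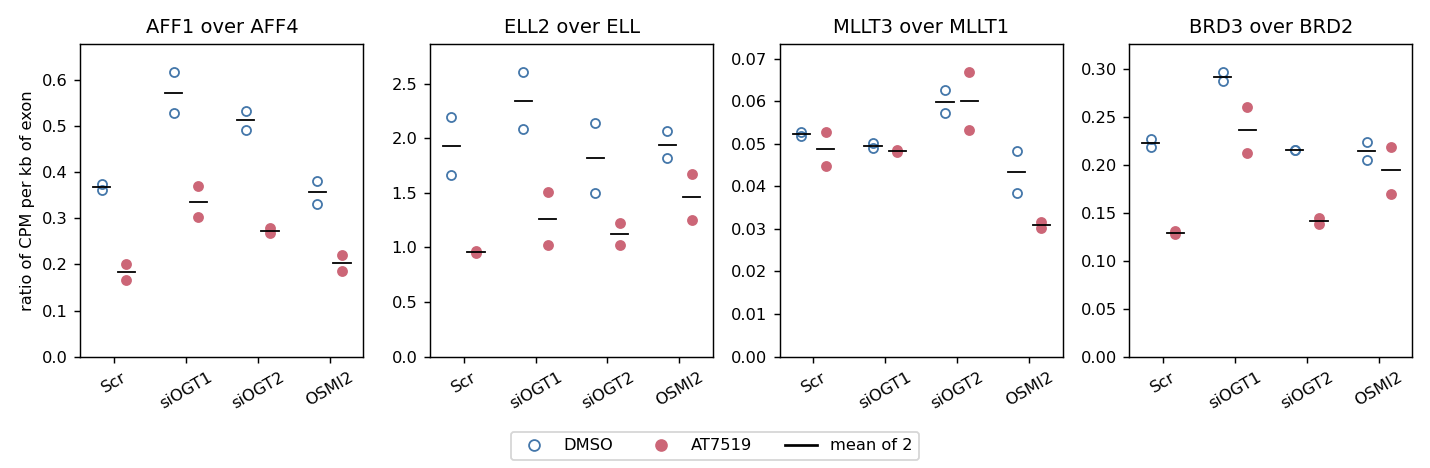
Ratio of CPM per kilobase of exon between the paralogs of each pair (vertical axes, each from 0) in all 16 libraries, with open circles for DMSO, filled circles for AT7519 and a bar at the mean of 2. AFF1 over AFF4 and ELL2 over ELL are lower with AT7519 in all 4 arms, while MLLT3 over MLLT1 separates clearly in OSMI2.

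The order of group levels was followed for each gene as a description. For AFF1, ELL2 and BRD3 all 4 DMSO groups ranked above all 4 AT7519 groups. Among the AFF1 groups, siOGT2 and siOGT1 with DMSO overlapped each other and lay above Scr and OSMI2 with DMSO, which also overlapped. AFF4 ran from 329 ± 9.43 CPM in OSMI2 with DMSO down to 188 ± 5.41 CPM in siOGT1 with AT7519 (SD, n = 2), and Scr with AT7519, siOGT1 with DMSO and siOGT2 with AT7519 overlapped in the middle. ELL ran from 24.6 ± 2.33 CPM in Scr with AT7519 to 12.7 ± 3.11 CPM in OSMI2 with AT7519, and its upper 4 groups (both Scr and both siOGT2) each overlapped the next. MLLT1 was highest in both siOGT1 groups, at 182 ± 6.05 CPM with DMSO and 174 ± 4.86 CPM with AT7519, above every other library. MLLT3 was lowest in both OSMI2 groups, at 11.5 ± 2.06 CPM with DMSO, which overlapped Scr with AT7519, and at 7.84 ± 0.376 CPM with AT7519, below every other library. BRD2 ran from 265 ± 9.21 CPM in OSMI2 with DMSO to 176 ± 4.92 CPM in OSMI2 with AT7519, with its last 5 groups each overlapping the next.

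Likeness of pattern was measured as Pearson's r of log2 CPM over the 16 libraries, against 9987 genes with a symbol and a mean log2 CPM of at least 3. The libraries share 8 groups, so these values describe likeness and carry no test. AFF1 was most like ZNF30 (r = 0.991) and FOXK2 (0.989), and 801 genes had r over 0.9 with it. ELL2 was most like MDM2 (0.977) and IKZF5 (0.970), and BRD3 most like NUMB (0.980) and SOGA1 (0.978), with 372 and 376 genes over 0.9. For AFF4 the closest were POM121C (0.974) and TANC2 (0.971), with 122 such genes, and BRD2 was most like ZNF808 (0.954) and AFF4 itself (0.948). The genes that fell steeply thus have many genes of like pattern, and the others few. MLLT1 was most like DICER1 (0.948) and STX6 (0.940), MLLT3 most like USP15 (0.956) and MRPL49 (0.950), and EAF1 most like POLR3K (0.869) and ELOF1 (0.862), with 12, 35 and 0 genes over 0.9.

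ELL had 1 gene over 0.9, CCNT1 (r = 0.944), which encodes cyclin T1, the partner of CDK9 in P-TEFb. The next was ELF3 at 0.871. CCNT1 was at 118 and 125 CPM in Scr with DMSO and at 137 and 134 CPM with AT7519, and in OSMI2 at 109.7 and 117 CPM with DMSO and at 89.0 and 62.7 CPM with AT7519. In siOGT1 it was at 85.9 and 81.5 CPM with DMSO and at 96.2 and 83.2 CPM with AT7519. Like ELL, CCNT1 was low in both siOGT1 groups and in OSMI2 with AT7519, and OSMI2 AT7519 replicate 2 was the lowest library for both. It was lower in siOGT1 than in Scr under DMSO (-0.53, adjusted p 0.00464), and in OSMI2 AT7519 lowered it by a log2 fold change of -0.58 (adjusted p 3.32e-04). Without OSMI2 AT7519 replicate 1 that value was -0.90, and without replicate 2 it was -0.37 (adjusted p 3.69e-06 and 0.0090). The part of library depth in these low values was not tested.

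**Figure D5:**
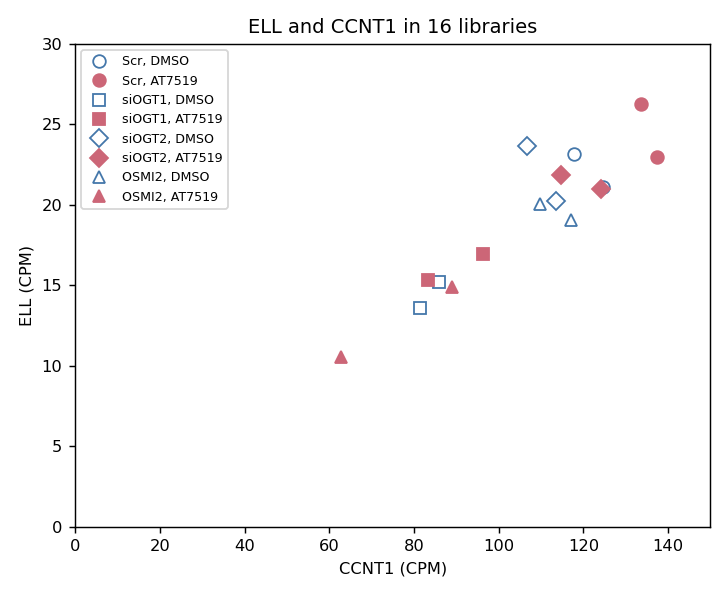
CPM of ELL (vertical axis) against CPM of CCNT1 (horizontal axis) in all 16 libraries, with 1 marker shape per arm, open for DMSO and filled for AT7519. The siOGT1 libraries and the OSMI2 libraries with AT7519 lie at the lower left, and Scr with AT7519 lies at the upper right.

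Close relatives and direct partners of these proteins were described from AFF2, AFF3, ELL3, EAF2, BRDT, ICE1, ICE2, ZC3H8 and DOT1L. AFF2 was at or near 0 and was not tested. Of the other 8, AT7519 raised 0 in every arm and lowered 4 in Scr and 3 in each of siOGT1, siOGT2 and OSMI2. Of all tested genes, 24.6%, 22%, 22.8% and 23.6% were called lower in these 4 arms, and 21.8%, 19.4%, 22.2% and 23.6% higher. ICE1, ICE2 and ZC3H8 belong with ELL to the little elongation complex, which serves small nuclear RNA genes. In Scr they fell by 0.46, 0.28 and 0.87 on the log2 scale (adjusted p 3.71e-04, 0.00652 and 9.06e-07), and ICE1 and ZC3H8 fell in all 4 arms. ICE2 in Scr lost its call with upper-quartile scaling (-0.13), without Scr DMSO replicate 2 (-0.25) and without Scr AT7519 replicate 2 (-0.19). DOT1L, a histone methyltransferase that binds MLLT1 and MLLT3, was lower by log2 values of -0.38 in Scr (adjusted p 0.0179), -0.33 in siOGT1 and -0.47 in siOGT2, all called, and was at -0.050 in OSMI2, not called. Upper-quartile scaling ended all 3 DOT1L calls (-0.22, -0.20 and -0.36). So did leaving out AT7519 replicate 1 of the same arm (-0.19, -0.17 and -0.29), and in Scr and siOGT1 either DMSO library, and in siOGT1 either library of OSMI2 with AT7519. EAF2, the paralog of EAF1, was at 3.58 ± 1.11 CPM in Scr with DMSO (SD, n = 2) and fell in OSMI2 (-1.06, adjusted p 0.00266), with no call in the other arms. Without OSMI2 AT7519 replicate 1 EAF2 was -1.61 and without replicate 2 of that group -0.78 (adjusted p 0.00115 and 0.047). AFF3, ELL3 and BRDT had values of -0.28, 0.11 and 0.14 in Scr and were called in no arm.

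A list of 20 other elongation genes (P-TEFb, its inhibitors, NELF, DSIF, SUPT6H and the PAF complex) moved in both directions. Of all tested genes, 21.8% were called higher and 24.6% lower in Scr, and 19.4% and 22% in siOGT1. These shares were 22.2% and 22.8% in siOGT2 and 23.6% and 23.6% in OSMI2. On the list of 20, 9 rose and 5 fell in Scr. In siOGT1, siOGT2 and OSMI2 9 rose in each and 6, 5 and 7 fell. Those with the smallest adjusted p in Scr were MEPCE (-3.38, adjusted p 2.13e-12) and HEXIM1 (-1.61, adjusted p 1.71e-10), which hold P-TEFb inactive, LEO1 (-0.87, adjusted p 4.02e-08), a PAF complex subunit, and CDK9 (0.73, adjusted p 3.66e-07). The median of the list was 0.12 in Scr, against -0.28 for the 9 members and -0.050 for all tested genes. The 8 tested relatives had a median of -0.28 there, like the members. For siOGT1 the median was -0.33 for relatives and -0.29 for members, and for siOGT2 it was -0.25 and -0.22. With OSMI2 the relatives stood at -0.32 and the members lower, at -0.61. A median below that of all tested genes was thus not particular to the 9 members.

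Gene models differed widely among the members (GENCODE v29, used for lengths and neighbours alone because the counts are on hg19). MLLT3 spans 280.9 kilobases, AFF1 206 and AFF4 88.3, while EAF1 spans 23.3 and BRD2 12.8, against a median of 32.3 over 14576 tested protein-coding genes. Some exons overlap genes on the other strand, and no source used here gives the strand setting of the counts, so reads there cannot be told apart. BRD3 shares 1281 bases with BRD3OS (35.8 CPM on average), which was at 0.15 with AT7519 in Scr (adjusted p 0.25) and was called in no arm in the fit reported. With upper-quartile scaling BRD3OS was called higher in Scr, siOGT1 and OSMI2 (0.30, 0.32 and 0.30, adjusted p 0.0147, 0.0105 and 0.0136). EAF1 shares 1500 bases with EAF1-AS1, 482 with METTL6 and 462 with COLQ, at 0.418, 19.3 and 2.56 CPM on average. For AFF1, AFF4, MLLT1 and MLLT3 no tested gene overlapped in exons.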

How the data were processed

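RNA of LNCaP cells was sequenced from 16 libraries. Per the labels, a strand-specific kit was used. STAR, HTSeq and DESeq2, with no version, and the builds hg19 and GRCh37 are listed in the submitters' processing notes. The authors deposited 1 whole-number count per gene and library, used here as deposited; their normalized table was not used. Identifiers were matched to symbols without version (55528 of 60252).

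With edgeR 4.0.16 in R 4.3.3, filterByExpr on the 8 groups kept 23830 genes, TMM scaled the libraries, and glmQLFit (robust) and glmQLFTest, two-sided, tested 13 comparisons on all 16 libraries, with calls at an adjusted p (Benjamini-Hochberg) under 0.05. CPM uses TMM-scaled totals. Each standard error was taken as the size of the log2 change divided by root F. The alternatives were other scalings, DESeq2 1.42.0, limma voom 3.58.1, other filters, a fit of the compared groups, replicate blocks and each library left out.

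The members and lists were chosen with earlier results of these data known. All members are named; relatives are given except 1, which is not reported here; of the other elongation genes, the 4 with the smallest adjusted p in Scr, and for each member the 2 genes of highest r, are named. CCNT1 is also given for its tested difference. Promoters come from RefSeq.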

Additional observations from a re-analysis of the deposited data

Results flagged for a closer look

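The AT7519 response of CCNT1, the closest gene in pattern to ELL, differed between OSMI2 and Scr by a test of the difference itself (-0.74, SE 0.16, adjusted p 0.036, edgeR). It was 0.16 in Scr (adjusted p 0.27) and -0.58 in OSMI2 (adjusted p 3.32e-04). Without OSMI2 AT7519 replicate 2 the difference was -0.55 (adjusted p 0.12), and without replicate 1 of that group it was -1.08 (adjusted p 4.06e-04). The call was also lost without either library of Scr with DMSO (-0.70 and -0.77), without Scr AT7519 replicate 1 (-0.78), without either library of OSMI2 with DMSO (-0.79 and -0.69), and, with values of -0.74, without any library of siOGT1 or siOGT2 with DMSO.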

How the results depend on the processing

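Values of single members were recomputed 3042 times (26 alternatives, of which 16 leave out 1 library each). Of these, 2898 kept their side of the threshold, 80 lost a call, 63 gained one and 1 reversed: EAF1 with AT7519 in Scr, -0.033 with library size alone. Among the 2898, the sign changed in 108, with no call in either fit. With 16 libraries left out in turn, members called ranged from 5 to 6 (AT7519 in Scr), 4 to 5 (siOGT1), 3 to 5 (siOGT2) and 6 to 7 (OSMI2). Against Scr under DMSO they ranged from 0 to 4 (siOGT1) and stayed at 0 (siOGT2, OSMI2). With AT7519 they ranged from 4 to 6, 0 to 1 and 2 to 6, and for differences in response from 0 to 0, 0 to 0 and 0 to 1. Where a group is left with 1 library, that library is assumed to vary like the other groups.

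Members called in siOGT1 against Scr under DMSO were 2 as reported and 4 with DESeq2, limma voom or no filter. They were 6 in the fit of the compared groups alone. Calls over all genes, higher and lower, were 1165 and 1314 as reported and 1425 and 1726 with DESeq2. They were 1615 and 1772 with limma voom, and 1338 and 1496 of 40417 with no filter. In siOGT2 under DMSO members called were 1 in place of 0 with no filter and in the fit of the compared groups. Calls over all genes there went from 457 and 568 to 592 and 817 of 40417 with no filter. In OSMI2 with AT7519 members called were 3 in place of 5 with upper-quartile scaling, library size alone and a stricter filter (mean log2 CPM at least 3). Calls over all genes went from 1235 and 2147 to 1942 and 1387 with upper-quartile scaling. They were 1940 and 1367 with library size alone, and 1430 and 1431 of 10181 with the stricter filter. The fit of the compared groups also gave 3 members in OSMI2. It gave 3 in place of 6 for siOGT1 and 0 in place of 1 for siOGT2 with AT7519. The difference in response in OSMI2 gave 1 member in place of 0 with DESeq2 and with no filter. Over all genes it went from 20 and 158 calls to 53 and 422 with DESeq2. With no filter it gave 46 and 505 of 40417. Calls over all genes were not counted for the fit of the compared groups or with a library left out. The causes were not tested.

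Replicate numbers are not said to mark a shared culture or day, and groups have only 2, so the design was not taken as paired. Differences between replicates 1 and 2 correlated with r of 0.603 to 0.734 over the 6 same-agent pairs of groups among Scr, siOGT1 and siOGT2. Over the 6 same-agent pairs with OSMI2 r was 0.0473 to 0.178. Over the 16 pairs with different agents it was -0.135 to 0.434. The 0.434 was that of the 2 OSMI2 groups with each other, and the next highest was 0.118 (siOGT2 with AT7519 and OSMI2 with DMSO). Within an agent, the siRNA libraries with the same number thus deviate together, a hint from the data and not from the design. With a replicate block, over all samples or within each agent, siOGT1 under DMSO had 5 members called and siOGT2 under DMSO 1. The difference in response in OSMI2 had 1. The block within each agent also gave 1 for the difference in siOGT1. Calls over all tested genes rose too. For the difference in OSMI2 they went from 20 higher and 158 lower to 44 and 332 with the first block. With the second they were 167 and 617. For siOGT2 under DMSO they went from 457 and 568 to 671 and 934, and to 1066 and 1508. For the difference in siOGT1 they went from 9 and 3 to 139 and 79 with the second block.

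Upper-quartile scaling and library size alone also moved the split of all AT7519 calls into higher and lower. As reported it was 4634 and 5246 (siOGT1), 5283 and 5445 (siOGT2), and 5624 and 5612 (OSMI2). It became 6159 and 4257, 6351 and 4633, and 7483 and 4569 with the first, and 2573 and 7501, 2842 and 8067, and 3163 and 7651 with the second. MLLT3, with 308 to 2449 counts per library, and ELL, with 400 to 2618, rest on the fewest reads.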
